A study of Mus musculus with 26 samples.

Results

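The 55 genes described here encode proteins of the cytoplasmic ribosome, 22 of the small subunit (Rps genes) and 33 of the large subunit (Rpl genes and Rplp0). They were taken by name from a list, pseudogenes left out, and all 55 were found among the 21829 protein-coding genes of GENCODE M21 (mm10). Ribosomal protein genes are transcribed in every growing cell, and their products are made in equal amounts because each ribosome holds them in fixed numbers. Many of their mRNAs begin with a C followed by a run of pyrimidines, the 5′ terminal oligopyrimidine (TOP) tract, which couples their translation to growth signals. Their promoters are usually compact and rich in CpG, and a large share of the introns hold small nucleolar RNA (snoRNA) genes, whose products guide the modification of ribosomal RNA.

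The study measured accessibility or factor binding together with DNA methylation in KH2 mouse embryonic stem cells (mESC), pluripotent cells grown on irradiated feeder cells with LIF and serum and pre-plated to remove the feeders. In M-ATAC (4 samples) and CTCF M-ChIP (2 samples), Tn5 transposase loaded with methylated adaptors cut native chromatin or chromatin immunoprecipitated with a CTCF antibody, and the fragments were bisulfite converted. The study describes M-ATAC as done in duplicate, and the labels do not say which of the 4 samples were merged. The unconverted libraries (marked NC), which by the study's methods were small portions of the tagmented DNA set aside before conversion, and the standard ATAC and CTCF ChIP with Nextera adaptors had 2 samples each. Klf4-/- mESC were infected with a lentivirus for doxycycline-induced WT Klf4 or the R462A mutant of its zinc finger (2 samples each), and KLF4 ChIP in Klf4-/- cells without either (2 samples) was the control. RNA-seq of WT KH2 mESC (2 samples) was used as the table of merged replicates. Nothing in the sources states that replicates came from separate cultures, so p-values measure only the spread between these samples.

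A region is a peak called by the authors in a library, and a gene was counted as having one when it touched the 2 kb window centered on its transcription start (1 kb to each side). Fold is the enrichment at a summit over the local background, and the highest summit in the window was used. The MACS2 lists held 22261 to 49633 regions per library, and the lists of the KLF4 samples 5821 to 14841. Read depth is not given in these lists. In the RNA-seq, 6 of 6 embryonic stem cell markers stood between 229 and 657 TPM (a level scaled for transcript length), and 6 feeder fibroblast markers between 0.080 and 85.3 TPM, with a median of 25.2. In such bulk RNA, fewer cells of a type and less RNA per cell cannot be told apart.

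Several of these genes have a run of pyrimidines at the annotated start. The windows below run from 20 bases before the start to 12 bases from it on, 5′ to 3′ on the coding strand of mm10, with the longest run of C and T at the start in capitals, and show 5 of the longest runs that cover the start, followed by 3 highly expressed or highly accessible members with no such run.

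Rps2 (chr17:24720090-24720121, + strand): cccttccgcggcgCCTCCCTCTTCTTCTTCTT
Rpl34 (chr3:130730326-130730357, - strand): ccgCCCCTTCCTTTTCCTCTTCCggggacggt
Rps24 (chr14:24490698-24490729, + strand): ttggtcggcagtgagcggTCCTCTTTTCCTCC
Rpl30 (chr15:34443211-34443242, - strand): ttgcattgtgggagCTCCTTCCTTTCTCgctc
Rpl4 (chr9:64173355-64173386, + strand): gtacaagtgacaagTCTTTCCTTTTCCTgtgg
Rps26 (chr10:128626736-128626767, - strand): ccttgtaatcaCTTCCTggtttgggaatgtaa
Rpl15 (chr14:18271056-18271087, - strand): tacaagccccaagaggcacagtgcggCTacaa
Rps29 (chr12:69159175-69159206, - strand): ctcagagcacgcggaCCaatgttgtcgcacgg

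The runs were 20 bases long in Rps2 and Rpl34, 19 in Rps24 and 14 in Rpl30 and Rpl4, and those of Rps2 and Rps24 went on past the printed window. The run of Rpl34 went from -17 to 3, so most of it lies before the annotated mRNA, which there begins with T. A run of at least 8 pyrimidines lay within 10 bases of the start, or covered it, in 22 of 55 members (40%), against 13.7% of all protein-coding genes and 13.2% of those of TPM at least 1. In the 24 other cytoplasmic ribosomal protein genes the share was 37.5%, in 14 translation factors and other TOP mRNA genes 50%, and in 78 mitochondrial ribosomal protein genes 11.5%. In 9 members (16.4%) the run covered the start itself, against 3.50% of all genes. In other members it can lie wholly before the annotated start, outside the mRNA. Rps26, the member of highest TPM, and Rps29 and Rpl15, among the most accessible, had runs of 6, 2 and 2 bases at the annotated start. These shares depend on where the annotation puts the start.

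The 250 bases before the start held a median of 17 CpG dinucleotides in the members, 9 in all genes and 16 in genes of TPM at least 1, at a median GC content of 55.6%, 54.8% and 60%. The ETS core CCGGAAG, searched on both strands as all motifs here, occurred in 13 members (23.6%), in 8.57% of all genes, in 13.3% of genes of TPM at least 1 and in 23.1% of mitochondrial ribosomal protein genes. The GC box GGGCGG occurred in 21 members (38.2%), against 41.6% of all genes and 59.8% of genes of TPM at least 1. TATAA was in 10 members (18.2%; 20.8% of all genes), the E-box CACGTG in 4 (7.27%; 6.52%), the YY1 core AAGATGG in 3 (5.45%; 4.29%) and GGGTGTGG or GGGCGTGG, cores bound by KLF4, in 5 (9.09%; 9.19%). None of these words contains another. In the members, ETS words and pyrimidine runs were thus more frequent than over all genes, GC boxes were not, and the other words stood close to their shares over all genes. The ETS share of the members was close to that of the mitochondrial ribosomal protein genes.

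The members also shared their gene structure. The median transcript had 5 exons and 835 bases, against 7 exons and 2492 bases over all genes. The medians were 5 exons and 685.5 bases in the other cytoplasmic and 5 exons and 1253 bases in the mitochondrial ribosomal protein genes. Of the 55 genes, 20 (36.4%) held 39 snoRNA genes on the same strand, with 5 in Rpl4 and 4 in Rpl13a. Of the 24 other cytoplasmic ribosomal protein genes 10 (41.7%) held any, while 1.17% of all protein-coding genes and 0 of 78 mitochondrial ribosomal protein genes did. Another protein-coding gene started within 1 kb of 9 members (16.4%; 9.79% of all genes), so a region there can belong to either start. The share was 14.3% in genes of TPM at least 1 and 34.6% in mitochondrial ribosomal protein genes.

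The RNA level of the members was among the highest of the cell. Their median was 2279 TPM, against 2.82 TPM over the 21539 protein-coding genes with a value, and together they took 13.0% of all TPM in the table. Of the 50 genes of highest TPM 26 were members, and of the 100 highest 45 were. The 24 other cytoplasmic ribosomal protein genes stood beside them at a median of 1988 TPM, the translation factors and TOP mRNA genes at 1449 TPM, 6 paralogs of ribosomal protein genes at 253 TPM and the mitochondrial ribosomal proteins at 63.9 TPM. The table has a single merged column, so no value has an error.

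Small subunit genes had a median of 2820 TPM and large subunit genes one of 2059 TPM. The highest levels were those of Rps26 (6317 TPM), a protein near the mRNA exit of the small subunit, and Rps24 (5597 TPM), which is needed for maturation of the 18S rRNA. Rpl32 (4049.9 TPM), Rpl38 (3987 TPM), which is known for the translation of Hox mRNAs, and Rps29 (3903 TPM) followed. At the other end were Rps12 (1.94 TPM), Rpl12 (79.4 TPM) of the stalk base, Rpl5 (129.8 TPM), which carries the 5S rRNA into the large subunit, Rpl27 (234 TPM) and Rpl35 (449.5 TPM), which lies at the exit of the peptide tunnel. In all, 49 of 55 members were above 1000 TPM and 6 were below, so the low values were exceptions within a narrow group.

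Some low values had a counterpart elsewhere in the same table. Processed copies of ribosomal protein mRNAs are spread through the genome, and reads from such a copy and from its parent cannot always be told apart. For 18 members, another row of at least 1 TPM belonged to a gene that held at least 50% of the 31-base words of the member's transcript. The row of Rps12-ps3, annotated as protein coding in GENCODE M21 and holding 83.8% of the words of Rps12, stood at 3873 TPM beside the 1.94 TPM of Rps12. Rpl27-ps3 stood at 1831 TPM beside 234 TPM of Rpl27, and Rps13-ps1 at 1985 TPM beside 532 TPM of Rps13. In these 3 members the copy was above its parent, and with the copies added Rps12 came to 3874, Rps13 to 2517 and Rpl27 to 2065 TPM, inside the range of the others. Rpl12, Rpl5 and Rpl35 had no copy that passed this cutoff and remained the lowest 3. Their chosen transcripts had 1242, 2045 and 946 bases, above the member median of 835. A copy of a shorter transcript would hold a smaller share of these words, so the cutoff can miss it. How reads that match several places were assigned is not given in the sources used here, and its part in these values was not tested.

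**Figure D1:**
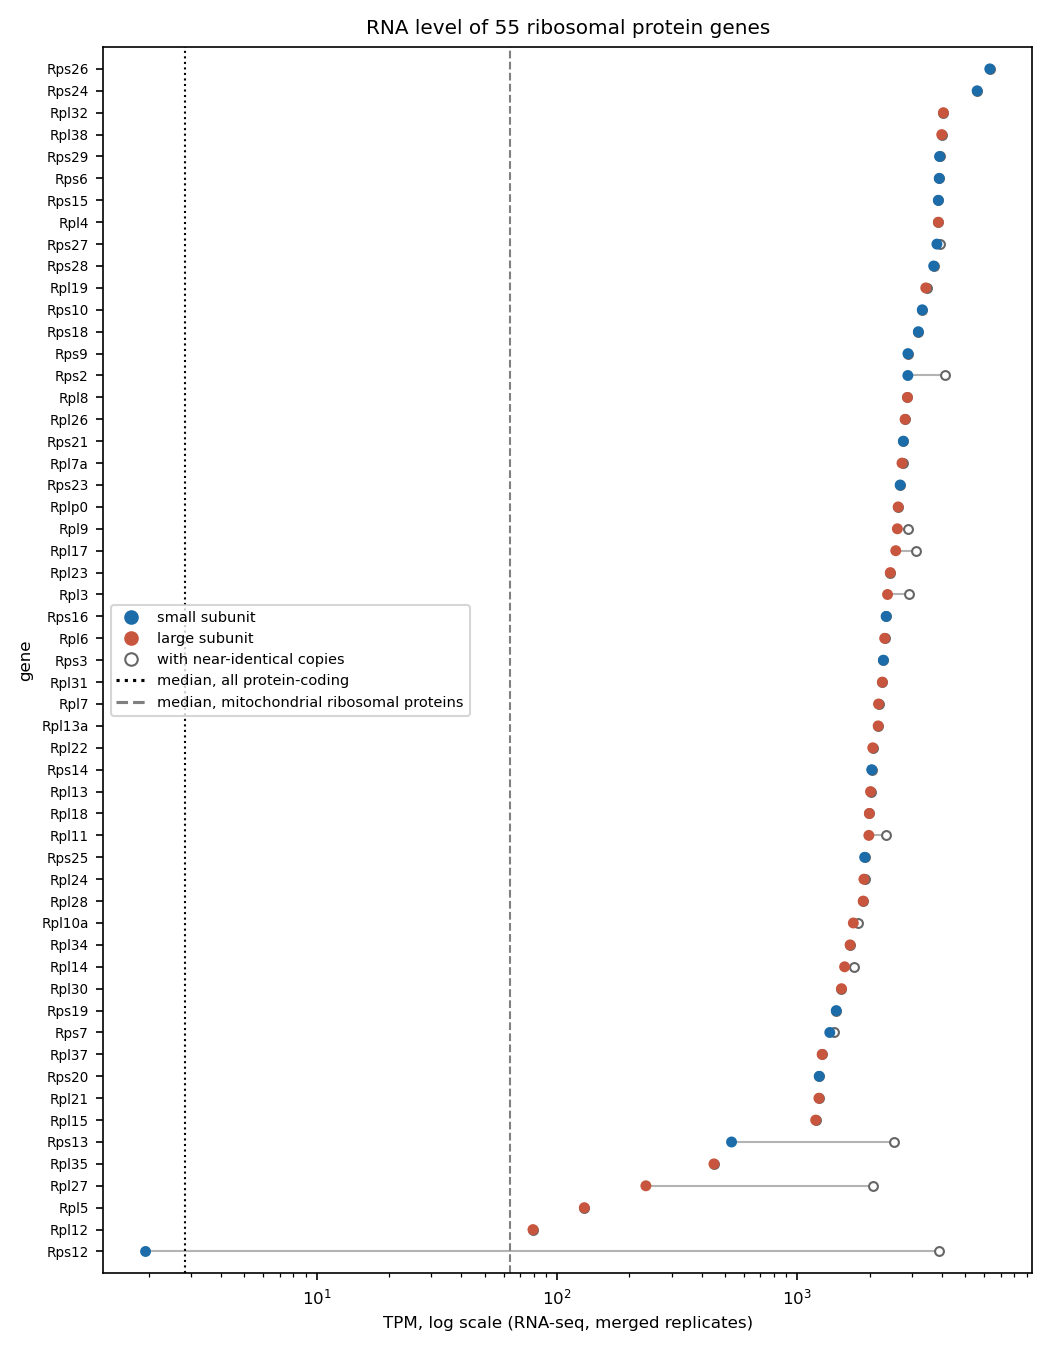
RNA level (TPM, log axis) of each of the 55 genes, sorted, with small subunit genes in blue and large subunit genes in red. Open circles add the rows of near-identical copies, which lift Rps12, Rpl27 and Rps13 into the range of the other members. The dotted line is the median of all protein-coding genes (2.82 TPM) and the dashed line that of the mitochondrial ribosomal proteins (63.9 TPM).

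Most member promoters were accessible in any single library. A region lay within 1 kb of the start in 41, 45, 42 and 40 of 55 members in M-ATAC samples 1 to 4, beside 43.3%, 45.7%, 42.3% and 41.3% of all protein-coding genes. In M-ATAC-NC 46 and 49 members had one (all genes 47.5% and 51.1%), and in ATAC 38 and 48 (all genes 44.3% and 49.5%). As shares these are 69.1% to 89.1% of the members. Genes of TPM at least 1 ranged from 64.6% to 77.3% in the same 8 libraries, and the members were above them in 8 of 8, by the least in ATAC 1 (69.1% against 67.8%).

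The counts of M-ATAC and M-ATAC-NC did not overlap, but the design could not reach 0.05. The shares of all protein-coding genes did not overlap either, at 41.3% to 45.7% in M-ATAC against 47.5% and 51.1% in M-ATAC-NC. M-ATAC had 42 ± 2.16 members (SD, n = 4) and M-ATAC-NC 47.5 ± 2.12 (n = 2), a difference of -5.5 members with p = 0.133 in a two-sided exact permutation test, the smallest that 4 against 2 samples allow, and 0.600 after Benjamini-Hochberg adjustment over the 9 tests made here. Since both kinds of library came from shared preparations, and the labels do not say which, the test treats as independent samples that may not be, and the same holds for the converted and unconverted CTCF libraries. ATAC had 43 ± 7.07 members (n = 2), which differed from M-ATAC by less than the spread between its own replicates (exact permutation p = 0.933, adjusted p = 1). M-ATAC-NC against ATAC gave a difference of 4.5 (exact permutation p = 0.667, adjusted p = 1, smallest possible 0.333). ATAC 1 was the lowest of the 8 libraries, and without it or without ATAC 2 the last 2 comparisons ranged from -6 to 4 and from -0.5 to 9.5 members, so their directions rested on single libraries.

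**Figure D2:**
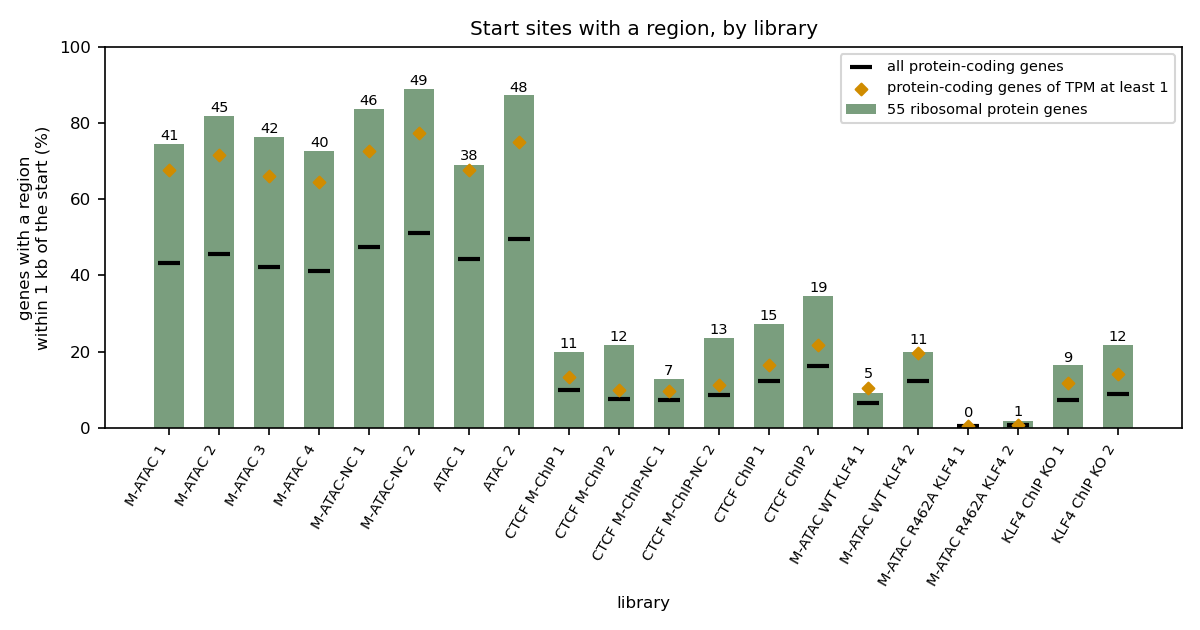
Share of genes with a region within 1 kb of the start in each library. Bars are the 55 ribosomal protein genes, with their number above; black lines are all protein-coding genes and diamonds those of TPM at least 1. The 8 accessibility libraries stand between 38 and 49 members, the 6 CTCF libraries between 7 and 19.

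Across libraries the same promoters were not always called. Of the 55 members 29 had a region in all 4 M-ATAC samples (52.7%; all genes 33.1%; genes of TPM at least 1 53.4%), 13 in 3, 5 in 2, 3 in 1 and 5 in none. In all 8 accessibility libraries it was 21 members (38.2%), beside 29.5% of all genes and 47.9% of genes of TPM at least 1. When the M-ATAC replicates were merged by the authors before calling, 54 of 55 members had a region, beside 59.8% of all genes and 87.7% of genes of TPM at least 1. The share of members was thus above that of expressed genes in each library and in the merged list, but below it for a region in all 8 libraries.

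The regions at member promoters were of moderate strength. The median fold at member promoters was below the median over all promoters with a region in 8 of 8 accessibility libraries, for example 7.92 against 8.79 in M-ATAC 1, 6 against 7.13 in M-ATAC-NC 1 and 5.44 against 6.19 in ATAC 2. The median over all promoters was 8.79 and 9.22 in M-ATAC 1 and 2, and 7.78 and 7.87 in M-ATAC 3 and 4. The ratio of the member median to that of all promoters was 0.909 ± 0.033 in M-ATAC (SD, n = 4), 0.871 ± 0.041 in M-ATAC-NC (n = 2) and 0.903 ± 0.034 in ATAC (n = 2). The ratio did not differ between M-ATAC and M-ATAC-NC (difference 0.038, exact permutation p = 0.267, adjusted p = 0.600) or ATAC (0.0056, exact permutation p = 0.933, adjusted p = 1) beyond the spread between samples. In the merged list the medians were 10.2 and 10.7, and 23 of the 54 members with a region were above the median of all promoters.

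The 4 members of highest mean fold in M-ATAC were Rpl15, Rpl37, Rps29 and Rpl27, although their order, and their place among the other members, changed between samples. Rpl15, a large subunit protein, had folds of 18.2, 16.3, 16.5 and 15.6 in the 4 M-ATAC samples, 12.9 and 14.4 in M-ATAC-NC and 9.44 and 9.43 in ATAC. Rpl37, a zinc-binding protein, had 15.2, 17.4, 15.9 and 14.1 in M-ATAC, 12.1 and 12.8 in M-ATAC-NC and 7.02 and 7.84 in ATAC. Both were high throughout, and in each the 4 M-ATAC values lay above the unconverted ones and those above ATAC. Rps29, which also binds zinc, had 15.5, 19.6, 11.2 and 13.8 in M-ATAC, 14.0 and 13.7 in M-ATAC-NC and 9.15 and 10.3 in ATAC. Rpl27 had 14.6, 18.4, 11.3 and 10.7 in M-ATAC, 12 and 10.9 in M-ATAC-NC and 6.27 and 7.57 in ATAC. Rpl34, which is outside these 4, had the highest member fold in ATAC 1 (9.88). In Rps29 and Rpl27, M-ATAC overlapped M-ATAC-NC, and only ATAC was lower than all other samples. Fold depends on the background of each library, so folds of different assays are given side by side and not compared as accessibility.

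**Figure D3:**
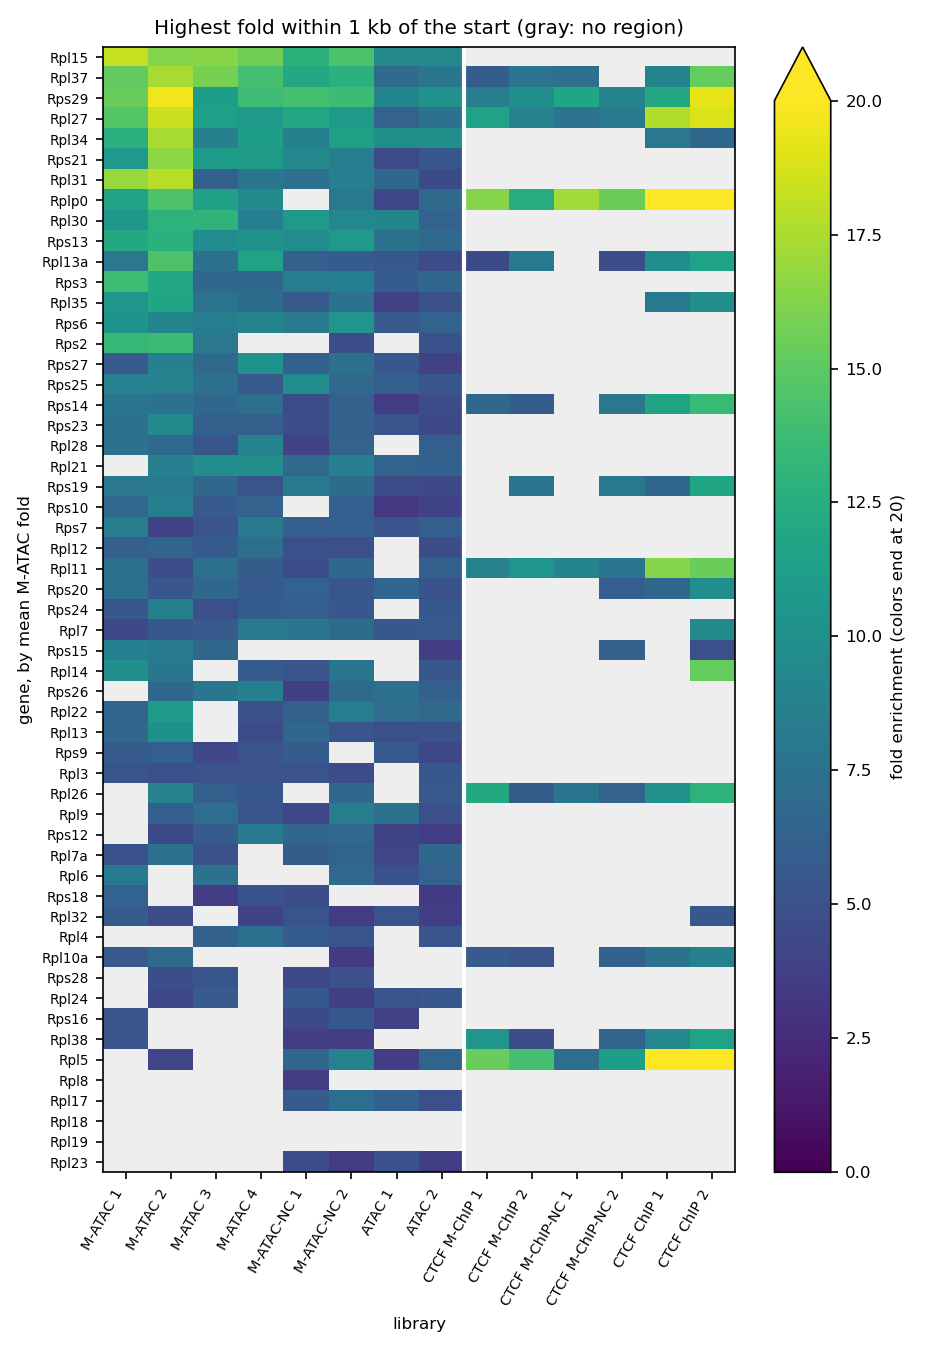
Fold enrichment of the highest summit within 1 kb of the start, for each gene (rows, by mean fold in M-ATAC) and library (columns), with gray for no region. Accessibility libraries are left of the white line and CTCF libraries right of it. Rpl15, Rpl37, Rps29 and Rpl27 lead in M-ATAC, and Rpl5, Rplp0, Rps29, Rpl11, Rpl26 and Rpl27 have a CTCF region in all 6 CTCF libraries.

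The 5 members with no region in any M-ATAC sample were all of the large subunit and all highly expressed. Rpl8 (2870 TPM), which lies close to the peptidyl transferase center, had a region in M-ATAC-NC 1 (fold 3.60) and in the merged M-ATAC list (3.81). Rpl17 (2567 TPM), which lines the peptide tunnel, had folds of 5.82 and 7.19 in M-ATAC-NC, 6.19 and 4.86 in ATAC and 5.80 in the merged list. Rpl23 (2435 TPM), which with Rpl5 and Rpl11 can bind Mdm2, had 4.75 and 3.58 in M-ATAC-NC, 5.04 and 3.69 in ATAC and 5.64 in the merged list. Both genes had a region in all 4 unconverted libraries and in none of the 4 M-ATAC samples, while Rpl18 (1993 TPM) had one in no single accessibility library and a fold of 4.50 in the merged list. Rps16, Rpl5 and Rpl38 had a region in 1 of 4 M-ATAC samples each, with folds of 5.29, 4.2 and 5.23. These 3 folds were below the median over all promoters with a region in the same library.

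Rpl19 was the single member with no region in any list. Its level was 3421 TPM, the 25th highest of all protein-coding genes, and its annotated start lies on chromosome 11 at 98026924 on the + strand. The nearest M-ATAC summit of the merged list lay at -7482 bp, with a fold of 4.54. The 150 bases before the start and 12 bases from it on are shown because no region was called there, with CpG in capitals, beside those of Rpl34, the member of highest methylated share.

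Rpl19 (chr11:98026774-98026935, + strand): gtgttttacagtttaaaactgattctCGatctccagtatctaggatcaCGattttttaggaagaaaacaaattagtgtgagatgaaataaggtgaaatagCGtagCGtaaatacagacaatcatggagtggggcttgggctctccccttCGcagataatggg
Rpl34 (chr3:130730326-130730487, - strand): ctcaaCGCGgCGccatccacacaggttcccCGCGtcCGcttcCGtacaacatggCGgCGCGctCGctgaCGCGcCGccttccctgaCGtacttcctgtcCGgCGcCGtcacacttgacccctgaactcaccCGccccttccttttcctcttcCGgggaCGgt

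The Rpl19 window held 5 CpG and that of Rpl34 21. Over 250 bases the numbers were 14 and 28, with GC contents of 48.0% and 63.6%. The median of the members was 17 CpG over 250 bases, and Rpl34 stood among the richest in CpG, so the pair does not set Rpl19 apart from the other members.

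Summits lay just upstream of the start. In the merged M-ATAC list 42 of the 54 members had their highest summit upstream, at a median of -61.5 bp and a range of -534 to 391 bp. Over all genes with a region the median was -44.5 bp and 66.3% were upstream. In single M-ATAC samples the nearest summit of the members had a median between -67.0 and -65.0 bp, against -47.0 to -45.0 bp over all genes. It lay within 200 bp of the start in 85.7% to 95.1% of members with a region, against 76.7% to 79.6% of all genes with one. In M-ATAC-NC the medians of the members were -41.0 and -30.0 bp, against -38.0 and -38.0 bp over all genes. In ATAC they were 9.50 and -42.5 bp, against -32.0 and -27.0 bp. The members thus lay further upstream than all genes in the 4 M-ATAC samples, in M-ATAC-NC 1 and in ATAC 2, and less far in M-ATAC-NC 2 and ATAC 1.

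**Figure D4:**
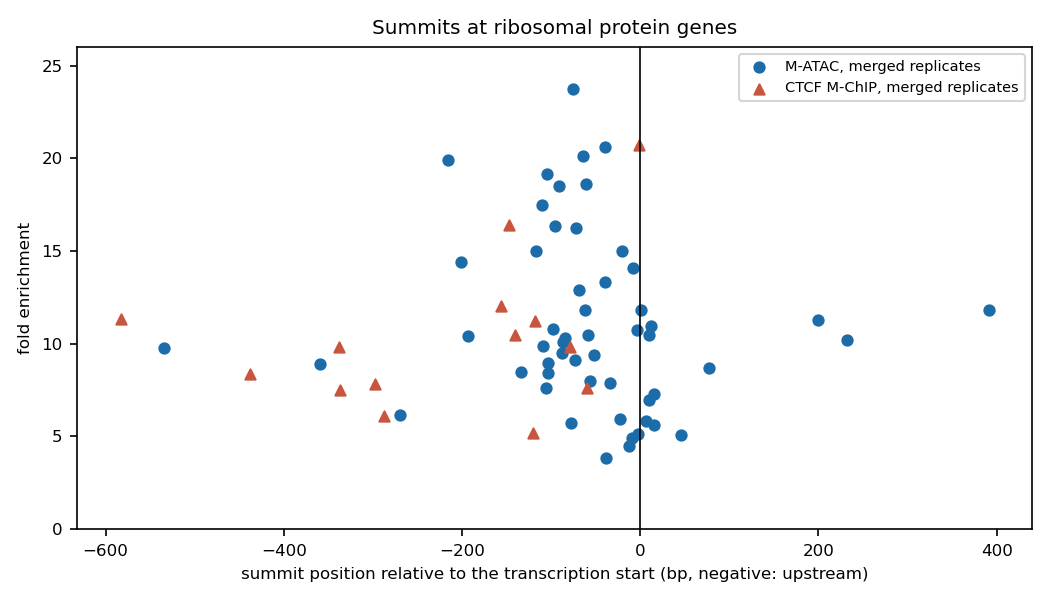
Position of the highest summit relative to the transcription start (bp, x axis) and its fold enrichment (y axis) in the merged M-ATAC list (54 members, circles) and the merged CTCF M-ChIP list (14 members, triangles). All 14 CTCF summits lie upstream of the start, that of Rpl5 by 1 bp.

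CTCF, an architectural zinc finger factor of insulators that also sits at many promoters, was found at a minority of the members. In CTCF M-ChIP 11 and 12 of 55 members had a region (all genes 9.99% and 7.55%), in CTCF M-ChIP-NC 7 and 13 (7.26% and 8.48%) and in CTCF ChIP 15 and 19 (12.4% and 16.2%). As shares these are 12.7% to 34.5% of the members, above the share of all genes and above that of genes of TPM at least 1 in each of the 6 libraries. In the merged CTCF M-ChIP list it was 14 members (25.5%), beside 11.5% of all genes and 15.4% of genes of TPM at least 1, and in the 24 other cytoplasmic ribosomal protein genes 8 (33.3%). In all 6 libraries a region was called in 6 members (10.9%; all genes 5.18%).

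CTCF M-ChIP had 11.5 ± 0.707 members with a region (SD, n = 2) and CTCF M-ChIP-NC 10 ± 4.24 (n = 2), which overlap (exact permutation p = 1, adjusted p = 1), and without CTCF M-ChIP-NC 1 the difference turned from 1.5 to -1.5. CTCF ChIP had 17 ± 2.83 (n = 2), and both of its samples were above both of CTCF M-ChIP, with a difference of -5.5 (exact permutation p = 0.333, the smallest possible for 2 against 2, adjusted p = 0.600). Over all protein-coding genes both CTCF ChIP samples were also above, at 12.4% and 16.2% against 9.99% and 7.55%. The 6 libraries of M-ATAC and ATAC (42.3 ± 3.61 members) lay above the 4 of CTCF M-ChIP and CTCF ChIP (14.3 ± 3.59) without overlap. The difference of 28.1 members had an exact permutation p of 0.0095, the smallest possible for 6 against 4, and an adjusted p of 0.086, which does not pass 0.05. Over all protein-coding genes the shares were 41.3% to 49.5% against 7.55% to 16.2%, so the assays separate at gene starts in general. The test therefore shows nothing particular to the members.

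Rpl5 had the highest CTCF fold in the merged list and in CTCF ChIP, while Rplp0 was above it in CTCF M-ChIP 1 and in both CTCF M-ChIP-NC libraries. Its fold was 15.4 and 14.1 in CTCF M-ChIP, 7.19 and 11.2 in CTCF M-ChIP-NC, 29.7 and 27.3 in CTCF ChIP and 20.7 in the merged list. Its accessibility folds were 4.2 in 1 of 4 M-ATAC samples, 6.69 and 8.84 in M-ATAC-NC and 3.60 and 6.43 in ATAC. The single M-ATAC value, in M-ATAC 2, lay below the member median of 8.68 in that library. Both M-ATAC-NC values lay above the member medians of 6 and 6.82. In ATAC 1 the fold was below the member median of 5.53, and in ATAC 2 it was above that of 5.44. Rplp0, the base of the stalk that recruits elongation factors, had CTCF folds of 16.4 and 12.4 in CTCF M-ChIP, 17.2 and 15.5 in CTCF M-ChIP-NC and 21.2 and 23.4 in CTCF ChIP. Both genes were called in all 6 CTCF libraries. Rpl27 (merged fold 12), Rps29 (11.3), Rpl11 (11.2), which binds the 5S rRNA with Rpl5, and Rpl26 (10.5) completed the 6. Rpl37 (9.84) was missed in CTCF M-ChIP-NC 2 and Rpl38 (9.81) in CTCF M-ChIP-NC 1. Rpl27 and Rps29 were thus among the 4 highest of the merged lists of both M-ATAC and CTCF, while Rpl15, first in merged M-ATAC, had no CTCF region in any library.

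The sequences under the CTCF regions were read from the deposited motif matches. Of the 14 members with a merged region 12 had a match to the CTCF matrix MA0139.1 within 1 kb, 14 matches in all, and all 14 were the same as the mm10 letters at their position. The best match of each of the 7 members with cytosines of at least 5 reads in a match, and that of Rpl27, is printed 5′ to 3′ on the strand of the match, with CpG in capitals where both bases lie inside it.

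Rpl5 (chr5:107900462-107900480, + strand): ctacCGgcagggggCGata
Rplp0 (chr5:115559287-115559305, + strand): gacccagcagagggcagca
Rps29 (chr12:69159740-69159758, - strand): aCGccagtaggtgtcagta
Rpl27 (chr11:101442124-101442142, - strand): ctgccactaggaggaggac
Rps19 (chr7:24883982-24884000, + strand): cCGgcactagatggCGgag
Rpl26 (chr11:68901462-68901480, + strand): gagcCGctagatgtCGcta
Rpl10a (chr17:28328446-28328464, + strand): cagcCGCGtggtggCGccc
Rpl13a (chr7:45129086-45129104, + strand): tgtccatgagggggCGagc

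The match of Rpl5 had the highest FIMO score (18), followed by Rplp0 (17.3) and Rps29 (16.3), and the lowest of these 8 was Rpl13a (10.6). The middle of the match lay at -31 bp from the start in Rpl5, -171 bp in Rplp0 and -563 bp in Rps29. For Rpl5 the match is shown within its promoter, from 80 bases before the start to 12 bases from it on (chr5:107900422-107900513, + strand), with the match in capitals.

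Rpl5 promoter: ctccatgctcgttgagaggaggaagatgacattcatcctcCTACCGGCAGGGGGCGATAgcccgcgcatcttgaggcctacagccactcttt

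In CTCF M-ChIP, 23 cytosines of these matches had at least 5 reads, in 7 members, and 0 of their 280 reads were methylated, which allows a share of up to 1.07% (3 reads of 280). At such cytosines within 1 kb of a start, 1.44% of 57180 reads were methylated over all protein-coding genes and 0.971% of 47371 over genes of TPM at least 1. The limit lies below the former and above the latter, so a difference from expressed genes was not detectable at this depth. A read counts at each cytosine it covers, so the counts are not independent and the limit can be too low. For Rpl5 4 cytosines with 53 reads and for Rpl26 5 cytosines with 92 reads had 0 methylated reads.

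Member promoters held almost no methylation in accessible chromatin. After merging of the M-ATAC replicates, 2752 cytosines covered by 5 reads or more lay within 1 kb of the starts of 54 members, and 92 of their 40274 reads were methylated (0.228%, 95% Wilson interval 0.186 to 0.280%). The share was 0.433% (0.429 to 0.437%) over all protein-coding genes and 0.362% (0.358 to 0.366%) over genes of TPM at least 1. It was 0.249% in small and 0.214% in large subunit genes, whose intervals overlap. The 24 other cytoplasmic ribosomal protein genes stood at 0.179%, the translation factors and TOP mRNA genes at 0.240% and the mitochondrial ribosomal proteins at 0.281%. These intervals cover counting error only, the table has no replicates, and the part of failed bisulfite conversion in shares this low was not tested. Here too a read counts at each cytosine it covers, so the intervals can be too narrow.

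The methylated reads were spread thinly over cytosines, but unevenly over members. Of the 2752 cytosines 2670 had 0 methylated reads, 76 had 1, 2 had 2 and 4 had 3. In all, 4 cytosines (0.145%) were methylated in at least 20% of reads, against 0.802% over all genes and 0.556% over genes of TPM at least 1. Of these 4, only a cytosine of Rplp0 had more than 1 methylated read, and the others had 1 of 5. In 21 members no read was methylated. The share was highest in Rpl34 (16 of 2301 reads, 0.695%, Wilson interval 0.428 to 1.13%), followed by Rpl15 (9 of 1497, 0.601%), Rps29 (14 of 2357, 0.594%), Rpl6 (1 of 176, 0.568%) and Rps2 (6 of 1152, 0.521%). Rpl34, Rps29 and Rpl15 together held 39 of the 92 methylated reads (42.4%). They were also among the members with the most reads, and their intervals overlap those of the other 2. Other members with many reads had few that were methylated, with 4 of 2793 in Rpl37, 0 of 1985 in Rpl13a and 1 of 1649 in Rpl35. The Rpl34 interval lay above that pooled over the members (0.186 to 0.280%), although Rpl34 was chosen as the highest.

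Within Rpl34, 2 cytosines had 3 methylated reads each, at -119 bp (3 of 46 reads, 6.52%) and -113 bp (3 of 41, 7.32%) from the start, inside the Rpl34 promoter printed with its CpG in capitals. In Rps29, 3 of 42 reads were methylated 18 bp after the start, 2 of 39 at -11 bp and 2 of 51 at -45 bp. The cytosine of highest share among those with 3 methylated reads was in Rplp0, at -230 bp, with 3 of 8 reads (37.5%). Each of these values rests on 2 or 3 reads, and neighboring cytosines can share them.

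The low level did not change with distance beyond counting error. It was 0.250% (0.069 to 0.906%) from 1000 to 500 bp before the start, 0.209% (0.106 to 0.411%) from 500 to 250 bp before, 0.238% (0.183 to 0.310%) in the 250 bp before, 0.222% (0.147 to 0.337%) in the 250 bp after and 0.198% (0.085 to 0.462%) from 250 to 500 bp after. From 500 to 1000 bp after, 0 of 117 reads were methylated, which allows a share of up to 2.56%. Over all genes the same bins held 0.540%, 0.432%, 0.392%, 0.392% and 0.432%. Over genes of TPM at least 1 they held 0.461%, 0.392%, 0.338%, 0.329% and 0.336%. Of these, only the value of the 250 bp before the start lay outside the interval of the members. Coverage was highest in the 250 bp before the start, with 18 reads per cytosine in the members and 17.7 over all genes, and fell to 10.9 and 12.4 in the 250 bp after. The median over the window was 10 reads per cytosine in the members and 10 over all genes.

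**Figure D5:**
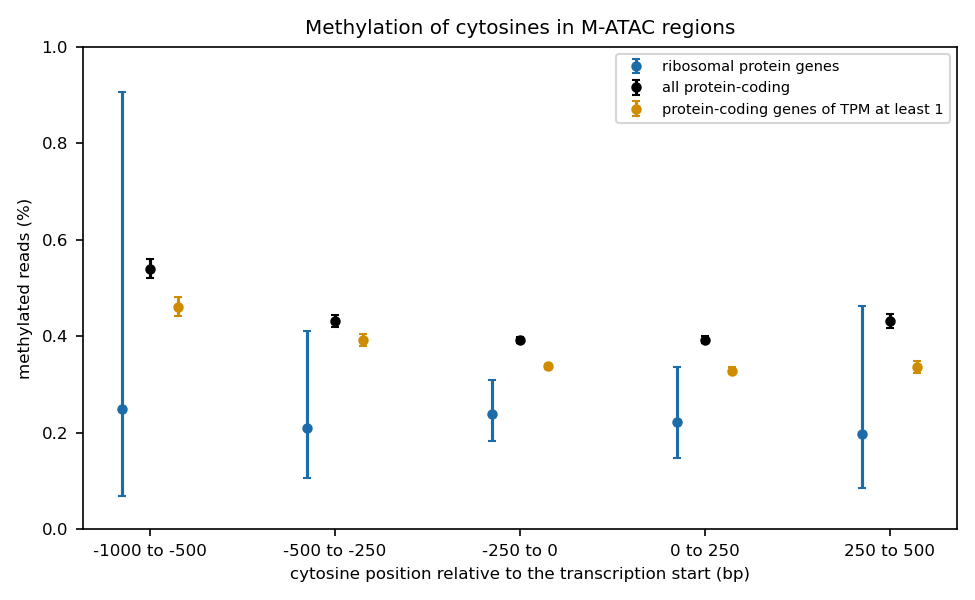
Share of methylated reads (%) at cytosines covered by 5 reads or more in merged M-ATAC, by distance from the transcription start, for the ribosomal protein genes (blue), all protein-coding genes (black) and genes of TPM at least 1 (orange). Bars are 95% Wilson intervals. The members stand between 0.198% and 0.250% in the 5 bins, below all genes in each, with wide intervals in the outer bins. Their intervals hold the share of genes of TPM at least 1 in every bin except the 250 bp before the start. The bin from 500 to 1000 bp after the start is not drawn.

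KLF4 is a zinc finger factor of pluripotency, and its lists held few of these promoters. The lists come from samples titled as M-ATAC of Klf4-/- cells with WT or R462A Klf4. The peak caller used for them is the one the study names for KLF4, so the labels leave the assay uncertain. These lists held 0.527% to 12.2% of all protein-coding genes, against 41.3% to 51.1% in the 8 accessibility libraries, and were not read as accessibility. In the WT lists 5 and 11 of 55 members had a region (all genes 6.61% and 12.2%), in the R462A lists 0 and 1 (0.527% and 0.637%) and in the Klf4-/- lists 9 and 12 (7.31% and 8.92%). The WT lists had 8 ± 4.24 members (SD, n = 2) and the R462A lists 0.5 ± 0.707 (n = 2), without overlap, with a difference of 7.5 (exact permutation p = 0.333, the smallest possible, adjusted p = 0.600). The shares of all genes in the WT and R462A lists did not overlap either. The counts of the Klf4-/- lists, from cells without KLF4, overlapped those of the WT lists. As shares, the WT lists held 9.09% and 20% of the members, beside 10.5% and 19.5% of genes of TPM at least 1.

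The 5 members in both WT lists (9.09%; all genes 5.02%) were Rpl31, Rpl12, Rps15, which lies in the head of the small subunit, Rpl8 and Rpl23. Of these, Rpl8 was also in both Klf4-/- lists and Rpl23 in 1, while Rpl31, Rpl12 and Rps15 were in neither. In M-ATAC, Rpl31 had folds of 17.0, 17.9, 6.23 and 7.84, Rpl12 6.15, 6.5, 5.79 and 7.22, and Rps15 8.66, 8.33 and 6.71 with no region in M-ATAC 4. The single R462A region was at Rpl3, which was also in WT list 2 and Klf4-/- list 2.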

How the data were processed

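Per the submitters' processing notes and the methods of the study, the authors trimmed reads (Trim Galore 0.4.4), aligned them to mm10 with Bismark 0.18.1 (converted libraries) or Bowtie2, removed duplicates and reads of low quality, and called peaks. The deposited MACS2 lists give a score, a fold enrichment (ratio over local background), a −log10 p and a −log10 q for each summit. The deposited PeaKDEck lists (KLF4) give a p-value and no fold. The authors' methylation tables of merged replicates give a count of methylated and of unmethylated reads and a percent per cytosine, and list cytosines inside merged regions (for CTCF, inside motif matches). The authors' RNA-seq column is TPM of merged replicates. HTSeq is named in the notes, the annotation used is not given in the sources used here, and reads that match several places can be split or lost. The deposited FIMO list gives a score and p-value per match.

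The start of a gene was the 5′ end of its APPRIS principal transcript in GENCODE M21 with the best support. The methylation tables held 2597817 and 46723 rows for 1636992 and 44814 distinct cytosines. Repeated rows were counted once and at least 5 reads were required. All 3274 cytosines sampled lay in CpG of the RefSeq genome of GRCm38. Copies were found with 31-base words of GENCODE transcripts. Sequences were read from the same genome. A start window of 1 member is not reported here. The genes, lists and tests were chosen with earlier results of these data known. Named were the 5 highest and 5 lowest in TPM, the 4 highest and 4 lowest in M-ATAC fold, up to 8 without a region in M-ATAC, the 8 highest CTCF folds, the 5 highest methylated shares and up to 6 in both WT lists. Rps13, Rps19, Rpl10a, Rpl13a, Rpl30, Rpl4 and Rpl3 were added after their values were seen.

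Samples were compared by two-sided exact permutation tests of group means, with 9 p-values adjusted by Benjamini-Hochberg. No test was made between members and other genes. With 5 reads a cytosine moves in steps of 20 percent. No list carries the titles of the KLF4 M-ChIP samples, so none was analysed under them, and the KLF4 lists used here may come from those samples. Scripts were tested on simulated data. Tools were scipy 1.17.1, pysam 0.24.0, pandas 2.3.3, matplotlib 3.10.9 and numpy 2.4.6 under python 3.11.15.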

Additional observations from a re-analysis of the deposited data

How the results depend on the processing

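Of 123 alternative values 110 kept direction and side of the threshold, or stayed within the interval or 1.5 times the first value. With these numbers of samples, no tested comparison could pass the threshold after adjustment. Its side was thus fixed by the design, and for the tested comparisons the count tells only of direction. The merged CTCF M-ChIP count rose from 14 to 24 members with windows of 3 kb. The ratio of the median TPM to that of other genes fell from 808 to 129.8 against genes of TPM at least 1. Median coverage fell from 10 to 6 reads when cytosines of 1 read were kept, which adds cytosines of few reads by construction. The relative fold of M-ATAC against ATAC turned from 0.0056 to -0.014 with the nearest summit, -0.0037 against promoters of TPM at least 1 and -0.0072 with M-ATAC 3 and 4 only. With the rows of near-identical copies added, an alternative chosen after seeing the data, the TPM ratio was 831, and without regions that overlap a Klf4-/- list the KLF4 difference was 5 members. The cause was not tested.

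Leaving out 1 sample at a time gave -7 to -4 members for M-ATAC against M-ATAC-NC, -6 to 4 for M-ATAC against ATAC (reversed without ATAC 2), -0.5 to 9.5 for M-ATAC-NC against ATAC (reversed without ATAC 1), -1.5 to 4.5 for CTCF M-ChIP against CTCF M-ChIP-NC (reversed without CTCF M-ChIP-NC 1), -7.5 to -3.5 for CTCF M-ChIP against CTCF ChIP, 27.0 to 29.7 for accessibility against CTCF libraries and 4.5 to 10.5 for the KLF4 lists. The relative fold ranged from 0.0083 to 0.067 against M-ATAC-NC and from -0.018 to 0.030 against ATAC (reversed without M-ATAC 2, at -0.0055, without M-ATAC 4, at -3.9e-05, and without ATAC 2). Where 1 sample was left in a group it was assumed to vary like the other group.

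The NC libraries share tagmented DNA with converted ones, but the labels do not say that equal numbers mark the same preparation, and with 2 pairs the deviations of log2 fold correlated at -0.021 to 0.11. With the replicate block the differences were -4.5 (M-ATAC against M-ATAC-NC), 0 (M-ATAC against ATAC), 4.5, 1.5 and -5.5 members, 7.5 for KLF4, and 0.050 and 0.018 in relative fold, with sign-flip p of 0.5 or 1, and no call changed, since none passed 0.05. Read depth is not in the files and limits weak regions.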
